A study of Homo sapiens with 11 samples.

Results

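IL11 and the cytokines, receptor chains and inhibitor that share its signalling route were followed in 2 human lung adenocarcinoma lines, A549 and HCC827, carrying either the empty vector or TRIM58, an E3 ubiquitin ligase of the tripartite motif family. The set holds 10 of the 20249 genes with a named probe, measured by 18 of the 42405 probes of the array: the ligands IL11, IL6, LIF and CLCF1, the receptor chains IL6ST, OSMR, LIFR, IL11RA and IL6R, and the feedback inhibitor SOCS3. The genes were selected on the measured difference between TRIM58-WT and mock A549 cells, chiefly that of IL11, and on belonging to the same family. Every value of these 10 genes in that comparison is therefore a description without a test, and only other comparisons carry one for them. Genes of the wider pathway lists, read further below, were tested in it. IL6ST is covered by 7 probes, IL6 and LIF by 2 each and the other genes by 1.

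Cells were infected with a pMXs-Neo retrovirus and selected with G418. Mock cells received the empty vector, and TRIM58-WT cells received the wild-type coding sequence with a FLAG tag. There were 3 mock replicates of A549 (4 arrays), 3 TRIM58-WT replicates of A549 (3 arrays) and, in HCC827, 2 replicates of each kind with 1 array each, which makes 11 arrays and 10 replicates. The methods describe clones isolated after selection, and elsewhere the paper numbers clones for A549 but calls the HCC827 transfectants crude, so a replicate may not be the same kind of sample in both lines. The labels number the cells and do not say that replicates came from separate clones or cultures, and p-values therefore measure only the spread between these samples, which may be technical. The insert was driven by the viral vector and not by the cells' own TRIM58 promoter.

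Cytokines of this family signal through IL6ST (gp130) together with another receptor chain. That chain is IL11RA for IL11, IL6R for IL6, LIFR for LIF and for the complexes that contain CLCF1, and OSMR for oncostatin M. Receptor engagement activates JAK kinases and STAT3, whose targets include SOCS3, an inhibitor that binds IL6ST and JAKs and ends the signal. In epithelial tumours IL11 is known as a target of TGF-beta and AP-1, and in the liver the family drives the acute phase proteins.

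Sequences upstream of the transcription start were read for the ligand with the widest range of levels, for IL6 and for SOCS3, because signal-dependent factors of this pathway bind near such starts. They are the 250 bases before the RefSeq start in assembly GRCh38.p14, given 5′ to 3′ on the strand of the gene, with capitals for any match to TGANTCA, the AP-1 motif, or TTCNNNGAA, the STAT motif, on either strand. The region of IL11 is chr19:55370464-55370713 on the minus strand, that of IL6 is chr7:22726950-22727199 on the plus strand, and that of SOCS3 is chr17:78360926-78361175 on the minus strand.
IL11: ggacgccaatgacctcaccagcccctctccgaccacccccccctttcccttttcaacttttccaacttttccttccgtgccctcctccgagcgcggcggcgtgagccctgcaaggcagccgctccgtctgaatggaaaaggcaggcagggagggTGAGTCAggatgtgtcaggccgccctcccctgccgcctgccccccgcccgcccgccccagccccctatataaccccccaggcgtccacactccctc
IL6: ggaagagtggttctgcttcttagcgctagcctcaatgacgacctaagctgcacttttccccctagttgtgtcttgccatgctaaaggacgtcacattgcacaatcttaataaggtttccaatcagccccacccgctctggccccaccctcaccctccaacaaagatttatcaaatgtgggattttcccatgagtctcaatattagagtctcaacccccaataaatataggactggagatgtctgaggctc
SOCS3: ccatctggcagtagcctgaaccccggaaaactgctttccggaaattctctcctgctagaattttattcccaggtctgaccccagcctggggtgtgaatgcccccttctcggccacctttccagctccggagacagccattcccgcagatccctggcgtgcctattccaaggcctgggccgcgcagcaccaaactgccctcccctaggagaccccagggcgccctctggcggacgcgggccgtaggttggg

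The IL11 sequence held 1 AP-1 match, TGAGTCA, from -96 to -90 counted from the start, and no STAT match. Neither motif occurred in the printed IL6 and SOCS3 sequences. The table gave 12 promoters for 8 of the 10 genes and none for LIF and CLCF1. Of those 12, 1 held the AP-1 motif (IL11) and 2 held the STAT motif (both of LIFR), against 6.57% of all 35116 promoters of the same length for each motif. Both strands were searched. A match describes letters only, and no match says nothing about binding elsewhere. By the same annotation the IL11 gene lies at chr19:55364382-55370463, IL6 on chromosome 7, LIF on 22, CLCF1 on 11, IL6ST, OSMR and LIFR on 5, IL11RA on 9, IL6R on 1 and SOCS3 on 17.

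Levels are log2 of the background-subtracted signal, with an array's own 75th percentile set to 0. Levels of different probes are not compared, apart from choosing brightest probes and from the marker sums below. Arrays had between 40.1% and 50% of probes well above background. On arrays labelled A549 mock 3 and TRIM58-WT 2 and 3 the 75th percentile was 56.6 to 62.5 intensity units, against 90.5 to 125 on the other 8 arrays. A549 mock replicate 3 stood apart by the SD of log2 differences over the probes well above background on both arrays of a pair. This SD was 0.65 to 0.75 from the other mock arrays but 0.56 from each of TRIM58-WT replicates 2 and 3. Those replicates differed from each other by 0.21, less than 0.26 between the mock arrays 1-1 and 1-2 of the same control cell. No array labelled TRIM58-WT had the TRIM58 probe well above background, and 1 mock array did, A549 mock 3, at a level of -0.71. Its position relative to the inserted coding sequence was not determined, so it does not check the labels, and groups are called by their labels throughout. Of 12 epithelial markers, 9 were above background on every A549 mock array and 6 on every A549 TRIM58-WT array. KRT19 and CLDN4 were above it on no A549 TRIM58-WT array, and ESRP1, NKX2-1 and SFTPB on no A549 array. On HCC827 arrays 11 of the 12 were above it throughout. The summed linear level of 14 fibroblast and mesenchymal markers, in units of each array's 75th percentile, was 31.6 to 193 in A549 mock, 122 to 396 in A549 TRIM58-WT, 2.86 to 3.59 in HCC827 mock and 5.41 to 7.76 in HCC827 TRIM58-WT. COL1A2, COL3A1, DCN, PDGFRA, PDGFRB, THY1, POSTN and SPARC were at background on every array, as were all 6 endothelial markers. Of 7 measured leukocyte markers, 4 were at background in A549 and 3 in HCC827. In such bulk RNA, fewer cells of a type and less RNA per cell cannot be told apart.

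IL11, a secreted cytokine of epithelial and stromal cells, had the widest range of the set. Its level was 0.68 and 0.56 on mock arrays 1-1 and 1-2 of A549, 0.86 in mock replicate 2 and 2.90 in mock replicate 3, and it was 5.24, 5.99 and 5.86 in TRIM58-WT replicates 1, 2 and 3. Every TRIM58-WT replicate lay above every mock replicate, and the mock replicate nearest to them was number 3. The means were 1.46 ± 1.26 (SD, n = 3) and 5.70 ± 0.40 (SD, n = 3), a difference of 4.24 on the log2 scale with a standard error of 0.62, or 18.9-fold. Without mock replicate 3 the difference was 4.96, and within the 2 slides, the glass slides that carried the arrays, it was 4.48 (TRIM58-WT replicate 1 against mock 1-1 and 2) and 4.20 (TRIM58-WT replicates 2 and 3 against mock 1-2 and 3). The summed level of the mesenchymal markers had a higher range in A549 TRIM58-WT than in mock, as IL11 did, though its ranges overlapped. Its brightest probe, VIM, made up most of the sum in A549, with mean levels of 5.68 in mock and 7.75 in TRIM58-WT. CDH2 had 2.06 and 4.78, and ZEB1 0.23 and 1.38. The dimmer LUM went the other way, with -1.39 and -4.64, and 9 of the 14 were above background on no A549 TRIM58-WT array. The part of these markers in the IL11 level was not tested.

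In HCC827 the mock replicates had IL11 levels of -2.33 and -2.58, and the TRIM58-WT replicates -1.39 and -2.06. All 4 values lay below every A549 value, though still well above background. The TRIM58-WT replicates were higher by 0.73 on the log2 scale (standard error 0.27, 95% interval 0.01 to 1.45), which did not pass limma's test after Benjamini-Hochberg adjustment (adjusted p = 0.244). The order of the 4 groups was thus A549 TRIM58-WT, A549 mock, HCC827 TRIM58-WT and HCC827 mock, and no neighbouring groups overlapped. IL11 in the mock lines differed by -3.91 (HCC827 minus A549), given without a test because the A549 mock values also entered the choice of the gene.

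**Figure D1:**
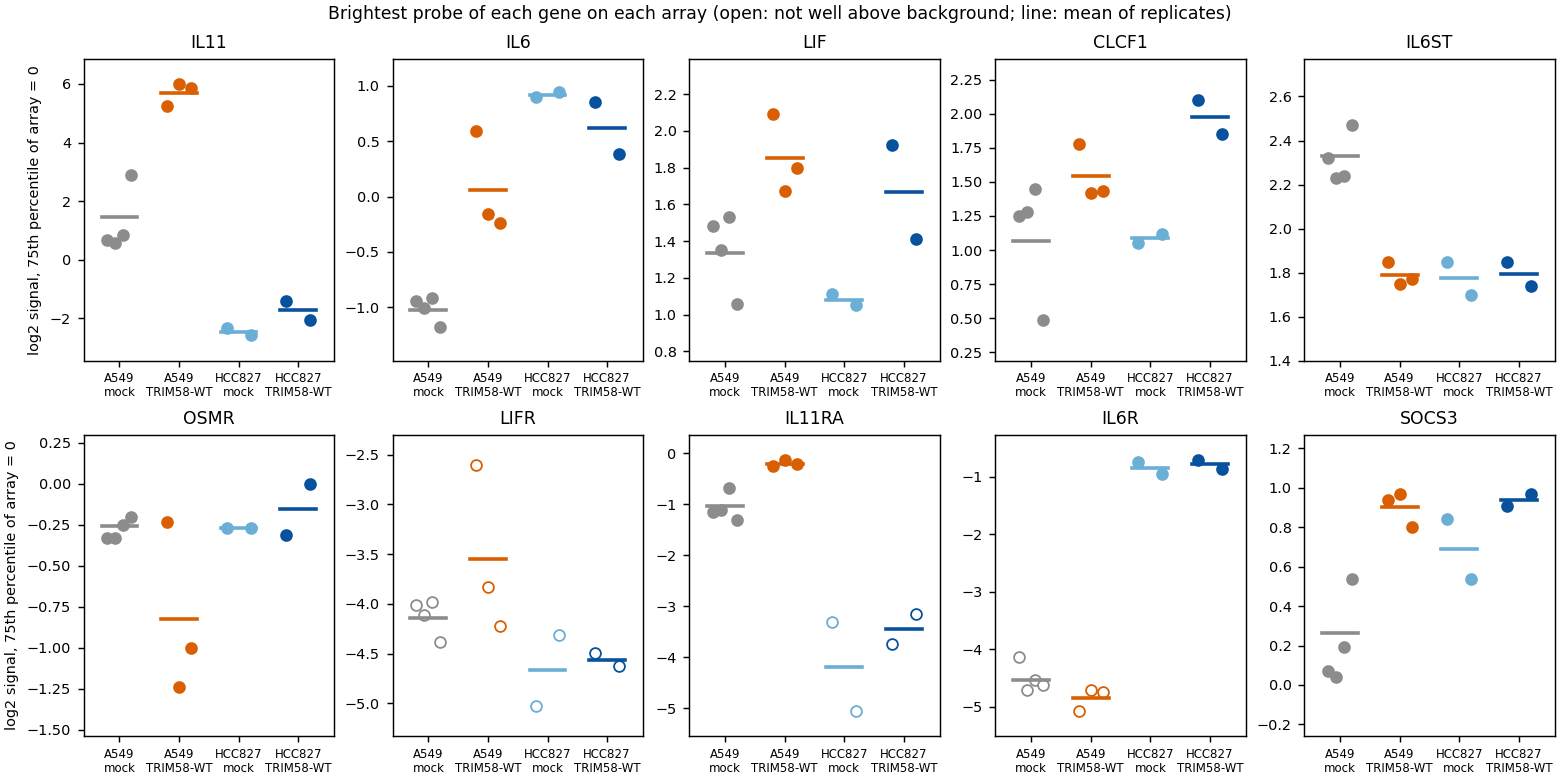
Level of the brightest probe of each of the 10 genes on each of the 11 arrays (log2 signal, 75th percentile of the array at 0, a separate axis range per panel). Filled points are well above background, open points are not, and lines are means over replicates. The 3 IL11 values of A549 TRIM58-WT sit between 5.24 and 5.99, above all others. The open points show that LIFR is at background everywhere, IL6R in A549 and IL11RA in HCC827.

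IL6, the founding ligand of the family, was measured by probe A_23_P71037 at -0.94 and -1.01 on mock arrays 1-1 and 1-2 of A549, -0.92 in mock replicate 2 and -1.18 in mock replicate 3. The TRIM58-WT replicates 1 to 3 were at 0.59, -0.16 and -0.24. All 3 lay above all mock values, by 1.09 on average (standard error 0.26, 2.12-fold), and the highest of them was replicate 1, without which the difference was 0.82. In HCC827 the mock replicates were at 0.90 and 0.94 and the TRIM58-WT replicates at 0.85 and 0.38, so that both TRIM58-WT values lay just below mock. That difference was -0.31 (standard error 0.20, 95% interval -0.85 to 0.23, adjusted p = 0.433 by limma). The other IL6 probe, A_33_P3407013, was at background on all 11 arrays.

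LIF signals through LIFR. In A549 it was at 1.48 and 1.35 on mock arrays 1-1 and 1-2, 1.53 in mock replicate 2 and 1.06 in mock replicate 3. The TRIM58-WT replicates were at 2.09, 1.67 and 1.80. They lay above the mock replicates by 0.52 (standard error 0.20). In HCC827 the mock replicates were at 1.11 and 1.05 and the TRIM58-WT replicates at 1.92 and 1.41, a difference of 0.59 (95% interval 0.02 to 1.16, adjusted p = 0.238 by limma). Both lines thus had higher LIF values in the TRIM58-WT replicates without overlap. Of all probes tested, 31% in A549 and 56.6% in HCC827 had groups that did not overlap. LIF did not pass the threshold in HCC827, the line where it was tested. The other LIF probe, A_24_P233488, was at background on every array.

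CLCF1, a neurotrophic ligand of the family, was at 1.25 and 1.28 on mock arrays 1-1 and 1-2, 1.45 in mock replicate 2 and 0.49 in mock replicate 3 of A549, and at 1.78, 1.42 and 1.43 in the TRIM58-WT replicates. The groups overlapped. The difference of 0.47 (standard error 0.29) was 0.18 without mock replicate 3, the lowest array. In HCC827 the mock replicates were at 1.05 and 1.12 and the TRIM58-WT replicates at 2.10 and 1.85. Their values lay above mock, by 0.89 (standard error 0.15, 95% interval 0.49 to 1.30), with an adjusted p of 0.0893 by limma, the lowest of the set in this line, which misses the threshold.

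IL6ST, the signal-transducing chain that all these ligands share, was lower in A549 TRIM58-WT on most of its probes. The brightest, A_33_P3233841, was at 2.32 and 2.23 on mock arrays 1-1 and 1-2, 2.24 in mock replicate 2, 2.47 in mock replicate 3, and 1.85, 1.75 and 1.77 in the TRIM58-WT replicates. The groups did not overlap, and their difference was -0.54 (standard error 0.15). Over the 5 IL6ST probes that entered the fit the differences ran from -0.21 to -1.34, all negative, and the groups did not overlap on 4 of them, beside 31% of all A549 probes tested. The probe with -1.34, A_33_P3233834, was above background on 1 of 3 TRIM58-WT arrays. Of the 2 dimmer probes, A_32_P223777 was above background on 3 of 4 mock and on no TRIM58-WT array, which makes mock at least 1.16-fold higher, and A_33_P3233843 had a difference of 0.22, with 3 of 4 mock and 1 of 3 TRIM58-WT arrays above background.

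IL6ST, OSMR and LIFR all lie on chromosome 5, and many genes of that chromosome had lower values in A549 TRIM58-WT than in mock. Over the 490 chromosome 5 genes tested, each by its brightest probe, the median difference was -0.48. Of them 14 were called higher and 38 lower, beside 3.89% called higher and 4.08% called lower of all 11186 genes. The median over all 16924 probes tested, a count of probes and not of genes, was 0.06. In windows of 10 Mb to either side the median was -0.50 over 36 genes around IL6ST and -0.49 over 38 genes around OSMR. Around IL11 it was 0.43 over 222 genes, with 28 called higher and 3 lower. In HCC827 the median of 553 chromosome 5 genes was -0.02, and that around IL11 was -0.03. The part of these regional shifts in the values of IL6ST, OSMR and IL11 was not tested.

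On the brightest IL6ST probe the HCC827 mock replicates were at 1.85 and 1.70 and the TRIM58-WT replicates at 1.85 and 1.74, a difference of 0.01 with a 95% interval from -0.36 to 0.39 (adjusted p = 0.967 by limma). Of the 6 IL6ST probes tested there, none passed the threshold. Their differences ran from -1.73 on A_33_P3233843, whose TRIM58-WT values of -5.10 and -2.31 were the most spread, to 0.43 on A_33_P3233834.

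**Figure D2:**
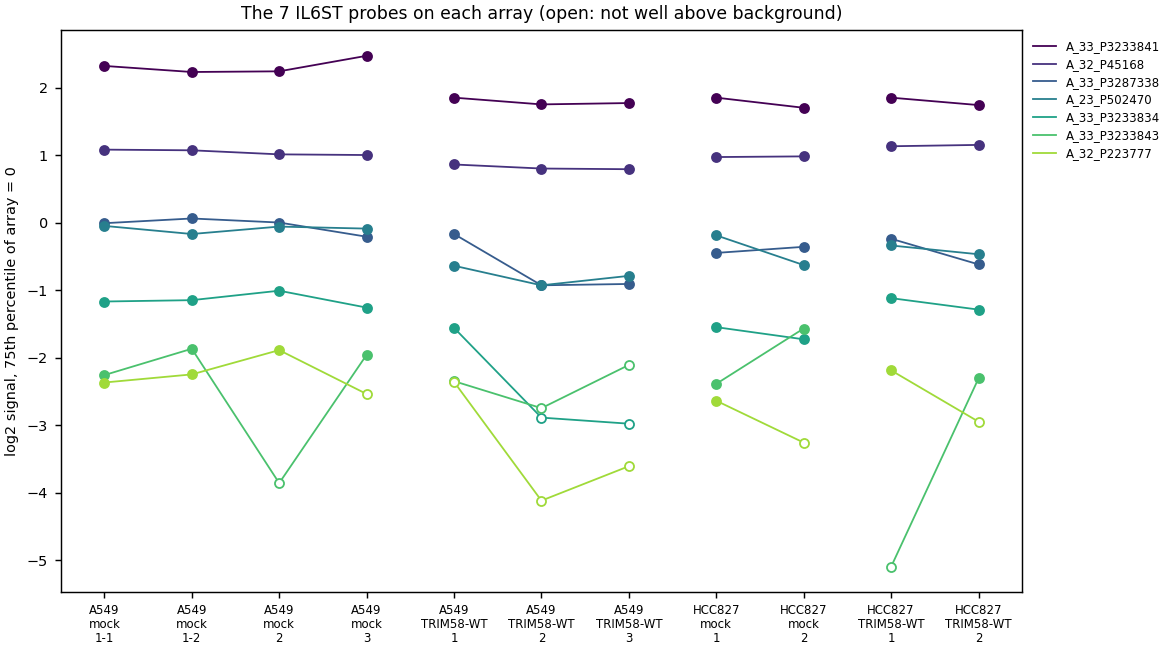
The 7 IL6ST probes on each of the 11 arrays (log2 signal, 75th percentile of the array at 0). Points joined by a line are the arrays of 1 group on 1 probe, and open points are not well above background. The brightest probe is between 2.23 and 2.47 in A549 mock and between 1.75 and 1.85 in A549 TRIM58-WT, while the 2 dimmest probes are partly at background.

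OSMR, the oncostatin M chain, was at -0.33 on both mock arrays 1-1 and 1-2, -0.25 in mock replicate 2 and -0.20 in mock replicate 3 of A549. Of the TRIM58-WT replicates, number 1 was at -0.23, within the mock values, and numbers 2 and 3 were at -1.24 and -1.0, below them. The difference of -0.56 (standard error 0.28) was -0.86 on the slide that held replicates 2 and 3 and 0.06 on the slide that held replicate 1. In HCC827 the level was -0.27 in both mock replicates and -0.31 and 0.00 in TRIM58-WT replicates (difference 0.12, 95% interval -0.32 to 0.55, adjusted p = 0.707 by limma). LIFR was at background on all 11 arrays, so no level is given for the receptor chain of LIF.

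IL11RA, the chain that binds IL11, was above background in A549 only. It was at -1.15 and -1.11 on mock arrays 1-1 and 1-2, -0.68 in mock replicate 2 and -1.31 in mock replicate 3, and at -0.26, -0.13 and -0.22 in the TRIM58-WT replicates. The groups did not overlap and differed by 0.84 (standard error 0.20, 1.79-fold). In HCC827 all 4 arrays were at background. IL6R, the chain that binds IL6, showed the reverse: it was at background on all 7 A549 arrays, while in HCC827 the mock replicates were at -0.74 and -0.96 and the TRIM58-WT replicates at -0.71 and -0.87. The HCC827 groups overlapped, with a difference of 0.06 (95% interval -0.35 to 0.47, adjusted p = 0.839 by limma).

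SOCS3, the feedback inhibitor, was at 0.07 and 0.04 on mock arrays 1-1 and 1-2, 0.19 in mock replicate 2 and 0.54 in mock replicate 3 of A549, and at 0.94, 0.97 and 0.80 in the TRIM58-WT replicates. All TRIM58-WT values lay above all mock values, by 0.64 on average (standard error 0.18, 1.56-fold). In HCC827 the mock replicates were at 0.84 and 0.54 and the TRIM58-WT replicates at 0.91 and 0.97. The difference of 0.25 (95% interval -0.18 to 0.69) did not pass limma's test (adjusted p = 0.420).

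Over all member probes, 12 of 18, covering 8 genes, entered the A549 fit, which takes a probe if all arrays of one group or the other have it well above background. Calls needed an adjusted p under 0.05 and at least 2-fold. In A549 1 of the 12 was called, IL11, beside 6.92% of all 16924 probes, and 9 of the 12 had groups that did not overlap, beside the same 31%. These counts describe the contrast that selected the genes and nothing is read from them. The differences had a median of 0.13, from -1.34 to 4.24. The count was 0 without mock replicate 1 or 2 or TRIM58-WT replicate 2 or 3, and 2 without TRIM58-WT replicate 1. Within slide 2 alone the 1 call was a lower one, so that IL11 was not called there. With the median of each array in place of the 75th percentile, which moved the median difference of all probes from 0.06 to -0.31, the signs of the brightest probes stayed and their differences were 3.87 for IL11, 0.72 for IL6, 0.15 for LIF, 0.11 for CLCF1, 0.47 for IL11RA, 0.27 for SOCS3, -0.91 for IL6ST and -0.93 for OSMR.

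In HCC827 13 of 18 member probes were tested and limma called none, beside 0.884% of all 19563 probes. Of them, 4 had an unadjusted p under 0.05: IL11, LIF, CLCF1 and 1 IL6ST probe, all higher in TRIM58-WT, beside 20.3% of all probes in either direction. The lowest adjusted p was 0.0893. Groups did not overlap on 7 of 13 probes, beside 56.6% of all probes. The median difference was 0.12, against 0.01 over all probes tested.

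**Figure D3:**
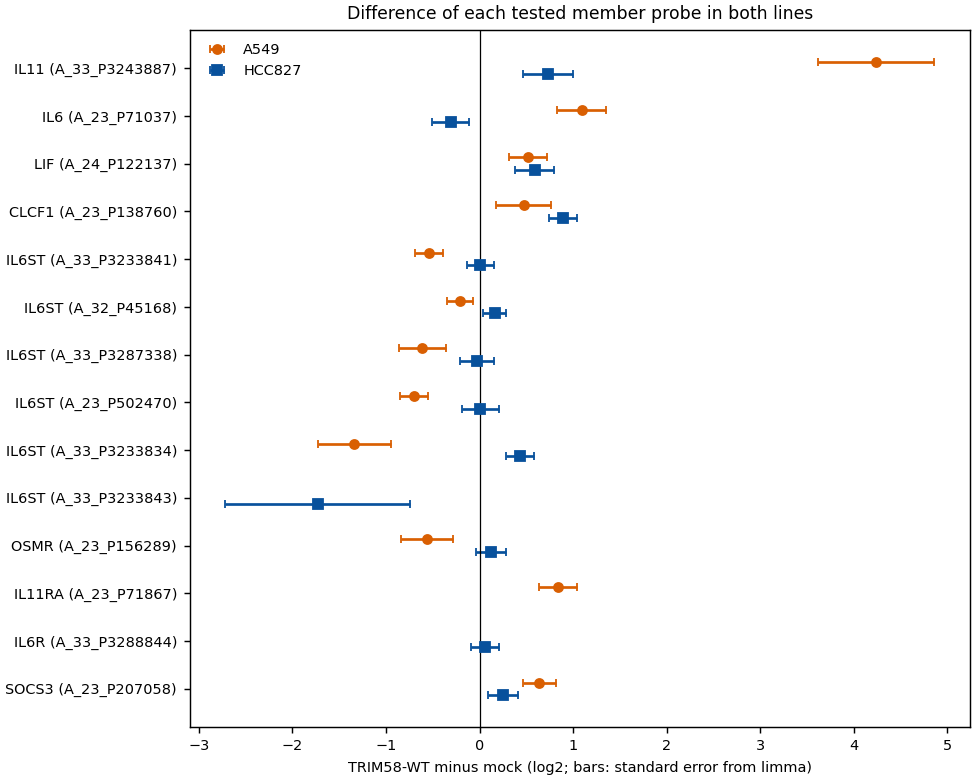
Difference between TRIM58-WT and mock (log2) of each member probe that entered the fit in A549 (circles) or HCC827 (squares), with limma's standard error as bars. The A549 difference of IL11, 4.24, stands to the right of all others, whose range in A549 is -1.34 to 1.09, and 5 IL6ST probes are below 0 in A549.

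The mock cells of both lines gave the levels of ligands and receptor chains with the empty vector. Of 13 member probes tested other than IL11, 3 were called between the lines, beside 30.1% of all 19505 probes. The A549 mock arrays used here also entered the contrast that selected the genes, which limits the adjusted p of each member. IL6 was higher in HCC827 by 1.94 on the log2 scale (standard error 0.27, 3.85-fold, adjusted p = 0.000574 by limma). IL6R was at least 4.11-fold higher in HCC827 (adjusted p = 1.31e-06), a bound because the A549 arrays were at background. IL11RA was at least 4.56-fold higher in A549 (adjusted p = 0.000723), a bound because the HCC827 arrays were at background. Both entered the fit only through the line where they are high, so their calls add nothing to the bounds, and neither was tested with the filter on every array, which left IL6 as the 1 call. The IL11RA call was also lost with the methods' t-test. The brightest IL6ST probe was lower in HCC827 by 0.55 (standard error 0.15, adjusted p = 0.0172), which is under 2-fold. LIF (difference -0.25, adjusted p = 0.399), CLCF1 (0.02, 0.971), OSMR (-0.01, 0.979) and SOCS3 (0.42, 0.102) did not pass limma's test, with 95% intervals of -0.77 to 0.27, -0.64 to 0.67, -0.65 to 0.63 and -0.01 to 0.85. With normexp background correction the 3 differences were 1.00, 0.75 and -0.78 and none was called.

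The rest of the pathway was read from 8 lists of 112 genes, each gene by its brightest probe. In A549 71 of them were tested, of which 0 were called higher and 7 lower by limma, beside 3.89% called higher and 4.08% called lower of all 11186 genes. In HCC827 76 were tested, of which 1 was called higher and 1 lower, beside 0.336% and 0.754% of 12199 genes. These A549 differences use the same arrays as the contrast that selected the 10 genes, and the lists too were chosen with earlier results known. Leaving out 1 replicate moved the counts: 18 genes (4 higher, 14 lower) were called in A549 without mock replicate 3, and 15 (2 higher, 13 lower) without TRIM58-WT replicate 1. The count was 1 when mock replicate 1 was left out, and 2 when mock replicate 2 or TRIM58-WT replicate 2 or 3 was. Of the calls named next, FGB was kept in all 6 of those fits, but its values were at background on all 3 TRIM58-WT arrays. FGB and FGA entered the fit only through the mock arrays, and the filter on every array did not test them. CCND1 was lost in all 6 and ATF3 in all but that without mock replicate 3. IL18, IL32 and FGA were lost without mock replicate 1 or 2 or TRIM58-WT replicate 2 or 3. BCL2L1 was lost without mock replicate 1 or TRIM58-WT replicate 3. In HCC827 the 2 calls were lost without either mock replicate or TRIM58-WT replicate 1.

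Among the 22 STAT3 target genes tested in A549, 2 were called lower and the median difference was -0.08. BCL2L1, which encodes the survival protein Bcl-xL, was at 1.13 to 1.37 on mock and -0.02 to 0.03 on TRIM58-WT arrays and fell by 1.24 (adjusted p = 0.00718 by limma). CCND1, the G1 cyclin D1, was at 2.74 to 2.94 on mock arrays and at 1.21, 2.01 and 1.90 in TRIM58-WT, and fell by 1.13 (adjusted p = 0.0395). In HCC827, 25 were tested with a median of 0.09. NNMT, a nicotinamide methyltransferase, rose by 1.80 there (mock 4.54 and 4.58, TRIM58-WT 6.43 and 6.30, adjusted p = 0.0340 by limma). BCL6, a transcriptional repressor, fell by 1.62 there (mock 0.83 and 0.77, TRIM58-WT -0.93 and -0.72, adjusted p = 0.0387).

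The acute phase proteins, the classical output of IL6-family signals in liver cells, had the largest median difference of the lists in A549, -3.40 over the 8 tested of 18, or -3.16 with FGB at its bound. FGB, the fibrinogen beta chain, was at 1.38, 1.30, 1.12 and -0.86 on mock arrays 1-1, 1-2, 2 and 3 and at background on all 3 TRIM58-WT arrays, at least 8.95-fold lower (adjusted p = 0.00543 by limma, in a fit it entered only through the mock arrays). FGA, the alpha chain, was at 1.14, 1.14, 0.88 and -0.69 on the same mock arrays. It was at -1.48 in TRIM58-WT replicate 1 and at background in replicates 2 and 3. The fitted difference was -3.65 on the log2 scale (adjusted p = 0.0491 by limma). FGA too entered the fit only through the mock arrays, and its size and adjusted p rest on 2 of 3 TRIM58-WT values at background. The other 6 tested did not pass the threshold. In HCC827 5 were tested, none was called, and the median was 0.90, or 0.78 with 1 gene at its bound.

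Of the inducible cytokines, 3 of 13 were tested in A549 and 2 were called lower. IL18, an interferon-gamma-inducing cytokine of epithelia, was at 2.98 to 3.34 on mock and 1.37 to 1.89 on TRIM58-WT arrays, and fell by 1.66 (adjusted p = 0.00892 by limma). IL32 fell by 2.05, from 1.67 to 2.66 on mock arrays to between -0.04 and 0.68 (adjusted p = 0.0176). Of 8 AP-1 subunits, factors that bind the motif seen upstream of IL11, ATF3 was called and fell by 1.82 (mock 0.75 to 1.79, TRIM58-WT -1.03, -0.04 and -0.15, adjusted p = 0.0382 by limma). The median of the AP-1 list was -0.08. None of 14 JAK, STAT and adaptor genes (median -0.14), 11 other inhibitors of cytokine signalling (median 0.47), 4 receptor shedding enzymes (median -0.04) and 3 other ligands and receptors of the family (median 0.46) was called in A549, and none of these 4 lists had a call in HCC827, nor had the AP-1 or the inducible cytokine list.

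**Figure D4:**
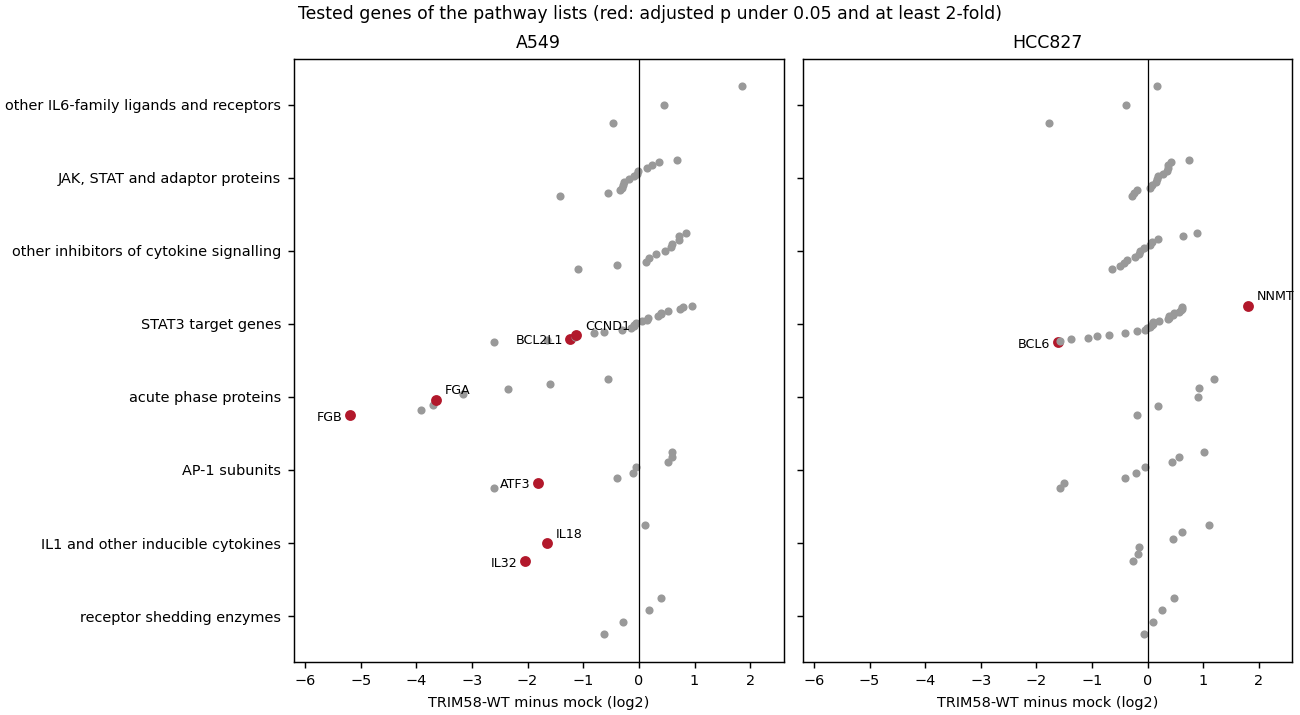
TRIM58-WT minus mock (log2) of every tested gene of the 8 pathway lists in A549 (left) and HCC827 (right), 1 point per gene. Red points are called and named: 7 in A549, all below 0, and 2 in HCC827, NNMT above and BCL6 below 0.

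The difference between the changes in the lines was tested for the 80 pathway genes measured, of which 4 passed, beside 4.61% of all 12831 genes at an adjusted p under 0.05 by limma. Taking the A549 change from the HCC827 change, FGB differed by 6.12 (adjusted p = 0.00648), a fitted value that rests on background values in A549 TRIM58-WT and in HCC827 mock, BCL2L1 by 1.73 (adjusted p = 0.00533) and IL18 by 1.5 (adjusted p = 0.0325). PTPRE, a receptor-type tyrosine phosphatase, was at background on all 4 A549 mock arrays and above it in 2 of 3 TRIM58-WT replicates. On every HCC827 array it was between -1.71 and -1.21. Its fitted difference was -2.20 (adjusted p = 0.0305 by limma), whose size rests on those A549 background values. FGB and PTPRE entered this fit only through groups where they are high, so their adjusted p rest on background values too. The count was 18 when A549 mock replicate 3 was left out, 18 when A549 TRIM58-WT replicate 1 was, and 2 or 3 when any other of the 10 replicates was. Each of those other replicates, left out, cost IL18 its call, and all of them but A549 TRIM58-WT replicate 3 cost PTPRE its call.

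The genes whose levels were most like those of IL11 over the 10 replicates were sought among 12837 genes. The highest Pearson r were those of CTIF, PMEPA1, GP1BB and COL4A1 (0.995 each) and GLIPR2 (0.994). PMEPA1, an inhibitor of TGF-beta signalling that TGF-beta induces, had mean levels of 4.04 in A549 mock, 6.82 in A549 TRIM58-WT, 0.65 in HCC827 mock and 0.99 in HCC827 TRIM58-WT. COL4A1, a basement membrane collagen, had means of 0.51, 3.33, -2.81 and -1.78 in the same order. The lowest r were those of SDCBP and EPCAM (-0.996 each), SAMD12 and ICA1 (-0.994 each) and MPZL3 (-0.992). EPCAM, an epithelial adhesion molecule, had means of 2.03, -2.85, 6.29 and 6.30 and was above background on 9 of 11 arrays. These r describe 10 replicates that fall into 2 lines and share arrays and scaling, and mock replicate 3 of A549 lay between the other mock and the TRIM58-WT replicates in each of these genes. Among the other members, IL11RA had the highest r to IL11 (0.887, rank 995 of 12837) and IL6R the lowest (-0.871), both with arrays at background.

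**Figure D5:**
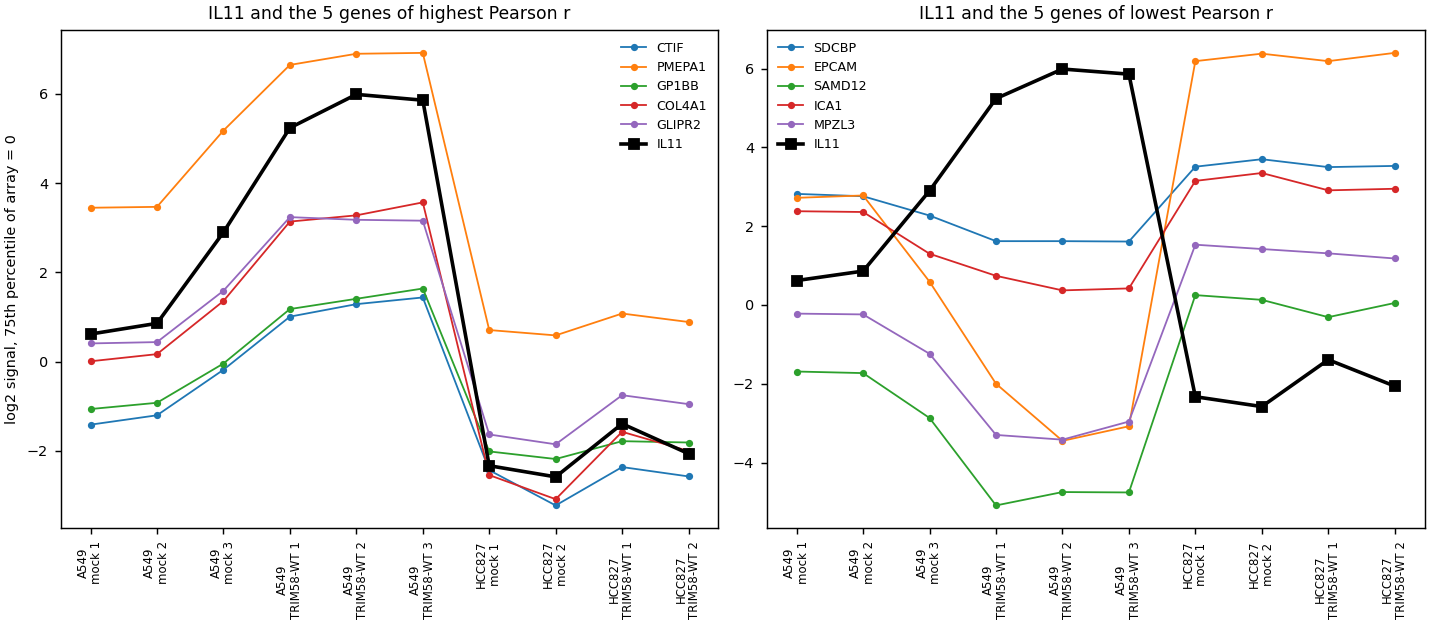
Level (log2 signal, 75th percentile of the array at 0) of IL11 (black squares) and of the 5 genes with the highest (left) and lowest (right) Pearson r to it, in each of the 10 replicates. Lines join the values of 1 gene. IL11 is at 0.62 and 0.86 in A549 mock replicates 1 and 2, 2.90 in replicate 3 and above 5 in TRIM58-WT, and the genes on the left follow it.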

How the data were processed

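RNA of the transfectants was hybridised to 1-colour Agilent SuperPrint G3 arrays. The authors deposited spot intensities of each array, made with Agilent Feature Extraction (10.7 per the labels, 11.5.1.1 per the file headers), and a table of log2 values that matched log2 of the processed intensity minus the 75th percentile of the array, with a baseline per probe, to within 0.01 for 95.5% of values. The methods name Gene Spring GX 13.0, Benjamini-Hochberg adjustment and 2-fold, and a t-test for pairs of groups in general, with no test stated for the arrays.

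In the re-analysis (limma 3.58.1 under R 4.3.3) control and outlier spots were dropped, processed signals were averaged per probe and turned to log2, and an array's 75th percentile was taken off. Well above background means that a share over 0.5 of a probe's spots carried that mark. The mean of A549 mock arrays 1-1 and 1-2 served as 1 replicate. Each line was fitted alone with lmFit and eBayes, and the mock lines and the difference between lines in a fit of all 10 replicates, with p-values adjusted over all probes tested. The number of arrays limits the precision. An "at least" fold compares the measured mean with, per array of the other group, the higher of the probe's own level and the lowest signal well above background. Symbols came through RefSeq accessions (27241 of 28302 probes that carry one) and positions from assembly GRCh38.p14. The members and lists were chosen with earlier results of these data known. The genes named are all member probes, up to 4 called genes per list and line or in the difference by size, the 5 highest and lowest r to IL11, and TRIM58. Marker lists and chromosome 5 are given as groups, with single markers named for their presence. Fits were tested on simulated data. Same-numbered replicates did not deviate together in every pair, so numbers were not used as a block. Alternatives were other scalings, normexp with an offset of 50, other filters, outlier spots, the authors' log2 table, the other samples in the fit, the methods' t-test, replicate and slide as a block, values within slides, other uses of mock arrays 1-1 and 1-2, TRIM58-WT replicates 2 and 3 averaged, and each replicate left out. A value called in neither setting was given no direction. Figures used Python 3.11.15 and matplotlib 3.10.9.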

Additional observations from a re-analysis of the deposited data

Results flagged for a closer look

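Flagged because the change differed between the lines by limma's test of the difference (HCC827 change minus A549 change, log2) were FGB at 6.12 (adjusted p = 0.00648), BCL2L1 at 1.73 (adjusted p = 0.00533), IL18 at 1.5 (adjusted p = 0.0325) and PTPRE at -2.20 (adjusted p = 0.0305). The sizes for FGB and PTPRE are fitted values and no bounds. FGB was at background on all 3 A549 TRIM58-WT and both HCC827 mock arrays, and PTPRE on all 4 A549 mock arrays and 1 of 3 A549 TRIM58-WT arrays. Each passed the filter only through groups where it is high, so its adjusted p rests on background values as its size does.

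Flagged, with a difference that was not tested, were probes whose TRIM58-WT replicates all lay on opposite sides of mock in the lines. They were IL6 on probe A_23_P71037 (TRIM58-WT minus mock 1.09 in A549 and -0.31 in HCC827) and IL6ST on probe A_32_P45168 (-0.21 in A549 and 0.16 in HCC827). Groups did not overlap on 31% of A549 and 56.6% of HCC827 probes tested, and A549 is the contrast that selected the genes. On the brightest IL6ST probe, A_33_P3233841, the HCC827 groups overlapped, with a difference of 0.01. No outlier check of single samples was made, since no group had more than 3 replicates.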

How the results depend on the processing

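The IL11 difference in A549 stayed between 3.78 (normexp) and 4.96 over all alternatives, and between 3.82 and 4.96 when 1 replicate was left out. Member probes called in A549, 1 in the reported setting, were 2 with quantile normalization, with the median of each array, with outlier spots kept and within slide 1, 3 with the HCC827 samples in the fit, with slide as a block and with mock arrays 1-1 and 1-2 as separate replicates, 0 with the methods' t-test and with TRIM58-WT replicates 2 and 3 averaged, and 0 to 2 with 1 replicate left out. Within slide 2 the count was 1 again, but a lower call and not IL11. Those called in HCC827 were 0 throughout. Those called between mock lines, 3, were 0 with normexp and 1 with the filter on every array, and stayed at 3 with 1 replicate left out. Pathway genes called in A549, 7, were 14 with the median of each array, 4 with normexp and with no filter, 15 with the HCC827 samples in the fit, 0 with the methods' t-test, 16 with slide as a block and with separate mock arrays, 26 within slide 1, 2 with TRIM58-WT replicates averaged and 1 to 18 with 1 replicate left out. Those called in HCC827, 2, were 9 with the median of each array, 1 with the 75th percentile over probes detected on all arrays, 0 with no filter and with the methods' t-test, 6 with the filter on every array and 0 to 2 with 1 replicate left out. Those that differed between the lines, 4, were 7 with normexp, 2 with no filter, 13 with slide as a block, 26 within slide 1, 11 with separate mock arrays, 2 with TRIM58-WT replicates averaged and 2 to 18 with 1 replicate left out. The causes were not tested.

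Same-numbered replicates did not deviate together in every pair (r of deviations 0.50, -0.42 and 0.50 in A549, 0.08 in HCC827). In A549 the arrays of replicates numbered 2 lay on different slides and those numbered 3 on the same slide. The part of the slides in these r was not tested. With the replicate number as a block, pathway calls were 0 in HCC827 and 2 for the difference between lines, and the other counts stayed within 1.5 times. Over all probes, calls in A549 (1171) ran from 24 (methods' t-test) to 4508 (within slide 1), in HCC827 (173) from 0 to 633, between mock lines (5873) from 3003 to 6731 and for the difference (796) from 224 to 4800. The median of each array changed the split of higher and lower calls from 591 and 580 to 285 and 828 in A549, from 57 and 116 to 289 and 344 in HCC827 and from 419 and 377 to 380 and 147 for the difference. No called gene changed sign, and of 388 single values called in neither setting 20 changed sign. Slide 2 held no HCC827 array, and the methods' t-test and the fit of other samples were not run for the difference. Probes at background have only bounds.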
